A study of Homo sapiens with 36 samples.

Results

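N6-methyladenosine (m6A) is a methyl mark that cells place on adenosines of messenger RNA, and the genes described here encode the proteins that write, remove and read it. They are the catalytic core METTL3 and METTL14, the regulatory subunits WTAP, ZC3H13, VIRMA and RBM15, the erasers ALKBH5 and FTO, and the readers YTHDF2 and YTHDC1. The members were chosen by gene symbol, after Ensembl identifiers without their version number were matched to GENCODE release 29. The 10 members are 10 of the 58219 genes listed in the RNA data and of the 43582 listed in the footprint data. The matching rule used no measured value, but the list was drawn up with results of these data, the counts of these same libraries, already known. The p-values below therefore describe the members and are not independent evidence about them.

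The cells were WiT49, an established human cell line from an anaplastic Wilms tumor, a kidney tumor of childhood. ActD stands for actinomycin D, an inhibitor of transcription that inserts itself into DNA, given here at 2 nM, and DMSO for the solvent dimethyl sulfoxide given to the controls. Cells were taken after 6 h, 72 h or 2 weeks. The 2-week schedule repeated a cycle of 7 days 2 times, in which 3 days of exposure preceded 4 days in medium without either agent. Total RNA and ribosome footprints, the RNA fragments that translating ribosomes protect, were each sequenced in 3 actD and 3 DMSO libraries per time, 36 libraries in all. In the 2-week RNA libraries the title and the library name give opposite treatments, so the text follows the library name, writes "named actd" or "named dmso", and every difference for them is named actd minus named dmso. With the arms taken by title, each 2-week RNA difference below changes its sign. All groups are 1 cell line, so no result here extends to other Wilms tumor cells, and the labels do not say whether replicates were separate cultures. The p-values then measure only the spread between these libraries, which may be technical.

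METTL3 carries the methyltransferase activity of the writer, and METTL14 supports it and helps bind RNA. WTAP anchors the regulatory subunits that bring the pair to its targets, VIRMA and ZC3H13 are large scaffold subunits, and RBM15 is an RNA-binding subunit. FTO and ALKBH5 are demethylases that take methyl groups off again. YTHDF2 is a cytoplasmic reader that sends marked messages to decay, and YTHDC1 is the nuclear reader linked to splicing and export.

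The promoters of 4 members are shown because METTL3 and FTO were among the members lower in RNA under actD at 72 h, whereas WTAP and ALKBH5 were the members on the higher side. Each is a RefSeq sequence on build GRCh38.p14 that runs from 250 bases before to 50 bases after a transcription start, 5′ to 3′ on the strand of the gene. Capitals mark the GC box, the letters GGGCGG or their reverse complement CCGCCC. The table held a promoter for 9 of the 10 members, all but VIRMA, and WTAP and YTHDF2 had 2 each.
METTL3 promoter: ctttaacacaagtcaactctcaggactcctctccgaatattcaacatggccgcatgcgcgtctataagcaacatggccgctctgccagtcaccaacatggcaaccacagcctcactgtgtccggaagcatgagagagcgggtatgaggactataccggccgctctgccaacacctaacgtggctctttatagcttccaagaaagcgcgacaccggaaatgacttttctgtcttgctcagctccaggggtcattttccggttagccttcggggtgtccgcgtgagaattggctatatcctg
FTO promoter: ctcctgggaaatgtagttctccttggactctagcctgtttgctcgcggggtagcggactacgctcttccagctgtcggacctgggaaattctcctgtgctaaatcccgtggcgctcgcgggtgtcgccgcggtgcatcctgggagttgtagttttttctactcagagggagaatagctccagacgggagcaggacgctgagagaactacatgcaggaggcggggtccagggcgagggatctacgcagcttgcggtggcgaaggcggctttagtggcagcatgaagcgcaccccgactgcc
WTAP promoter 1: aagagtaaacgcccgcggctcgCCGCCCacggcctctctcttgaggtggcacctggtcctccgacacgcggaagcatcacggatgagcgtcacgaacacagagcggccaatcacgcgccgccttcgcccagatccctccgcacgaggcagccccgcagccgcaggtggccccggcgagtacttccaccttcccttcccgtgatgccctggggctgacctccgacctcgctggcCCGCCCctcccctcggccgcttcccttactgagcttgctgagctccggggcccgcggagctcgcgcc
WTAP promoter 2: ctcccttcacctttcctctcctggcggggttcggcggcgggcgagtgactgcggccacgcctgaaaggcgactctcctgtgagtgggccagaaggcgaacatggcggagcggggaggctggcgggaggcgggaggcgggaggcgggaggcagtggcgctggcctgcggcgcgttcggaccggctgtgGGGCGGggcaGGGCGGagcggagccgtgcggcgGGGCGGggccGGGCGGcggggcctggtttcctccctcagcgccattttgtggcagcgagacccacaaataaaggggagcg
ALKBH5 promoter: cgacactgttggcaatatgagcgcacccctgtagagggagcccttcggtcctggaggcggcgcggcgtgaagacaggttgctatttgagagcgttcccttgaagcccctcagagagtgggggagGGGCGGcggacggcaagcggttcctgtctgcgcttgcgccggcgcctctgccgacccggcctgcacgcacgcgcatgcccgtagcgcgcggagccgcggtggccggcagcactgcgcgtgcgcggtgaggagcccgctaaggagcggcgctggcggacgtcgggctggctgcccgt
METTL3 lies at chr14:21498133-21511375 on the minus strand and its promoter at chr14:21511291-21511590 (GRCh38). FTO lies at chr16:53701692-54158512 on the plus strand, with the promoter at chr16:53703906-53704205. WTAP spans chr6:159725585-159756319 on the plus strand, and its promoters are chr6:159726867-159727166 and chr6:159727256-159727555. ALKBH5 spans chr17:18183078-18209954 on the plus strand, with the promoter at chr17:18183578-18183877. The GC box occurred 0 times in the METTL3 and FTO windows, 2 and 4 times in those of WTAP and 1 time in that of ALKBH5. Of all 35116 promoter windows of this length, 45.0% held at least 1. GC content was 53.0% for METTL3, 60.0% for FTO, 70.3% and 73.3% for WTAP and 71.0% for ALKBH5, against a median of 58.7% over all windows. ActD binds DNA by preference at GC steps, a G followed by a C. That step (letters GC, the same on both strands) occurred 24 times in the METTL3 promoter, 30 in FTO, 39 and 42 in WTAP and 49 in ALKBH5, with a median of 25 over all windows. The other members lower at 72 h follow this split only in part. METTL14 (55.7% GC, 19 GC steps) and ZC3H13 (52.0% GC, 19 GC steps) held 0 GC boxes. RBM15 held 3 GC boxes, at 52.7% GC with 17 GC steps, and YTHDC1 2, at 58.3% GC with 27. YTHDF2 held 2 and 4, the latter in a window of 73.0% GC with 48 GC steps. These counts describe letters in 1 window per start site and show no binding.

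Total counts were 40221994 to 69240041 per RNA library and 152556 to 1281039 per footprint library, of which 23134 to 283435 fell on protein-coding genes. Each member passed the low-count filter in all 3 RNA tables, but 4 of 10 (ZC3H13, VIRMA, RBM15 and YTHDF2) passed in each footprint table. The Wilms tumor markers IGF2 (1020 to 2359 CPM, counts scaled to library size) and LIN28B (124 to 430 CPM) were high in every RNA library, WT1 lay between 3.77 and 37.6 CPM, and SIX2, PAX2, EYA1, SALL1 and CITED1 stayed under 1 CPM. Blood and endothelial markers PTPRC, CD3E, PECAM1 and CDH5 were at or near 0 and CD68 reached 2.10 CPM. Collagen genes of the stroma panel were high, COL1A1 at 346 to 818 CPM and COL3A1 at 924 to 1764 CPM at 6 h and 72 h and 2817 to 4421 CPM at 2 weeks, and DCN reached 53.6 CPM. The mitochondrial ribosomal RNAs made up 24.6% to 32.3% of counts in actD RNA libraries at 72 h and 15.5% to 22.5% in DMSO libraries. At 2 weeks they made up 25.8% to 31.2% in the RNA libraries named actd and 19.6% to 22.9% in those named dmso. The same RNAs took 7.28% to 8.54% at 6 h. The part of this difference in make-up in the members' results was not tested.

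Did actD change the RNA of the m6A machinery? By edgeR's quasi-likelihood test, 0 of 10 members had an adjusted p-value under 0.05 at 6 h, 72 h or 2 weeks. That test called 0% of 22669 genes at 6 h, 0.00472% of 21195 at 72 h and 0% of 21137 at 2 weeks, so the members' count is that of nearly every gene. DESeq2 called 197, 608 and 189 genes at the 3 times, among them FTO at 72 h and no other member. At an unadjusted p-value under 0.05 there were 1 of 10 members at 6 h (8.21% of all genes), 3 at 72 h (13.1%) and 2 at 2 weeks (8.93%), all of them lower. The arms did not overlap for 2 members at 6 h (15.8% of all genes), 4 at 72 h (20.9%) and 1 at 2 weeks (15.7%).

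In sign, 8 of 10 members were lower under actD at 72 h, with a median log2 difference of -0.33 against 0.02 over all genes tested. Of those 21195 genes, 10296 were lower. Among protein-coding genes 54.6% were lower (median -0.05), and 59.4% of those from 30 to under 100 kb (median -0.09). WTAP and ALKBH5 were the 2 higher members. The members' median was -0.16 without DMSO replicate 2, with 7 of 10 lower, and -0.53 without DMSO replicate 3. The same 8 were lower and the same 2 higher in the 2-week libraries named actd (median -0.28 against -0.02). With the arms by title, 8 were higher and 2 lower (median 0.28), so the 2-week direction rests on the doubtful labels. The libraries named actd also held the larger share of mitochondrial ribosomal RNA, as did the actD libraries at 72 h. Of the 21137 genes tested at 2 weeks, 11254 were lower in the libraries named actd. Scaled by library totals in place of TMM, the 2-week median of all genes moved to -0.18 and all 10 members were lower. Without named actd replicate 2 the 2-week median was -0.09 and FTO was higher (0.03), and without the second named dmso library YTHDF2 was higher (0.11). At 6 h the split was 4 lower and 6 higher, with a median of 0.06 against 0.02 for all genes. Of the 22669 genes tested there, 10648 were lower.

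**Figure D1:**
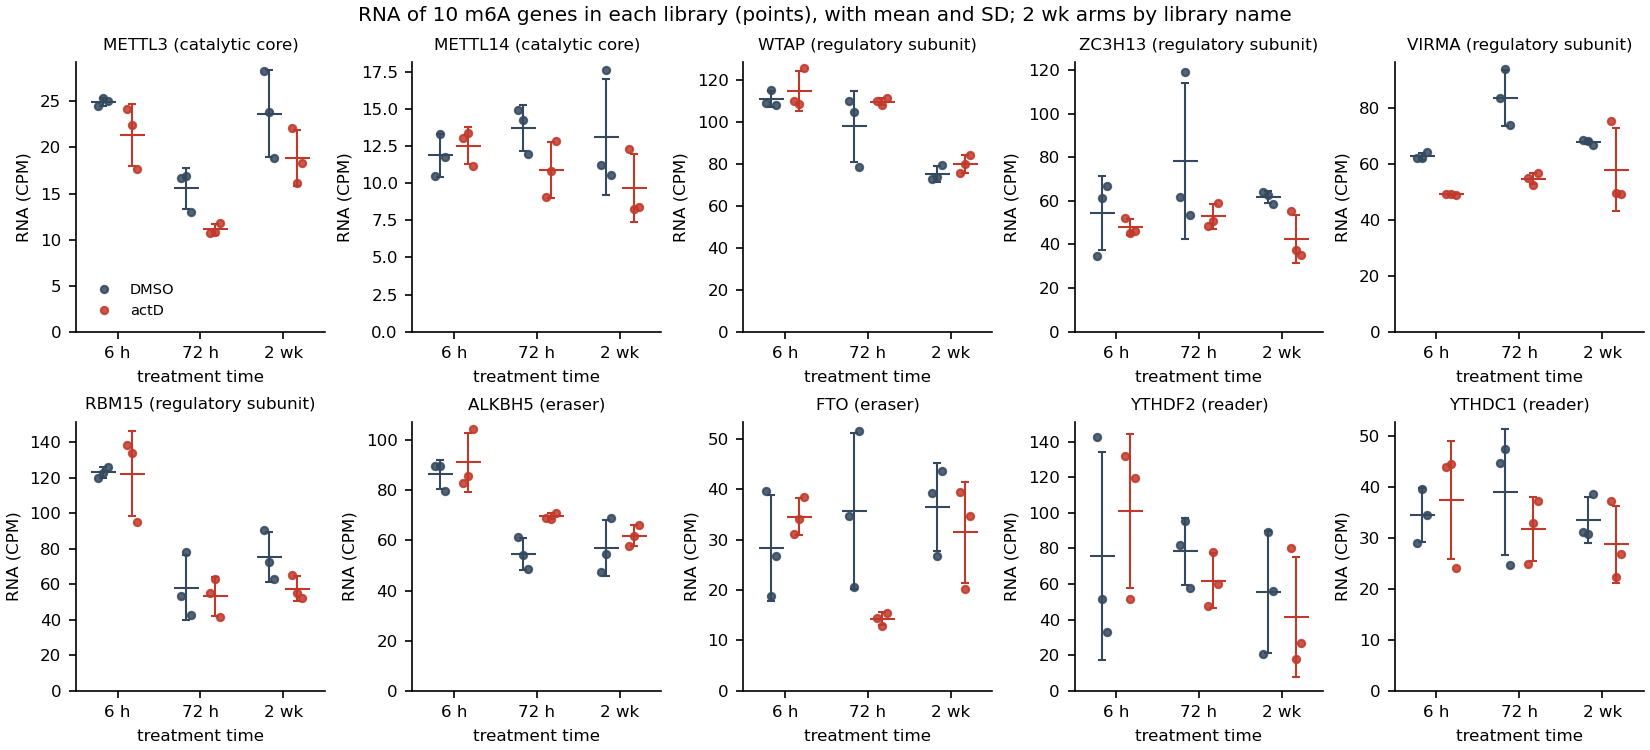
RNA of each member in CPM (y axis, from 0) by treatment time (x axis). Points are single libraries, bars the mean with SD of 3, red for actD and dark for DMSO, with the 2-week arms by library name; at 72 h the actD points of METTL3, VIRMA and FTO lie below all DMSO points and those of ALKBH5 above them.

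METTL3, the methyltransferase, was lower under actD at 72 h, without passing the adjusted test. At 72 h its RNA was 10.8, 10.8 and 11.8 CPM in the actD libraries and 16.7, 16.9 and 13.0 CPM in the DMSO libraries. All 3 actD values lay below all 3 DMSO values, although the third DMSO library came close. This was a log2 difference of -0.48 (SE 0.21), 0.715 times the DMSO level, with an unadjusted p of 0.0476 and an adjusted p of 0.377 by edgeR. At 6 h METTL3 was 24.2, 22.4 and 17.6 CPM under actD and 24.5, 25.4 and 25.0 CPM in DMSO. Here too the arms stayed apart, by less than 1 CPM, with a log2 difference of -0.22 (SE 0.14) and an edgeR adjusted p of 0.734. In the 2-week libraries METTL3 was 22.1, 16.1 and 18.3 CPM in those named actd and 28.3, 23.9 and 18.9 CPM in those named dmso. The arms overlapped and the log2 difference was -0.33 (SE 0.18, edgeR adjusted p = 0.631).

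METTL14, the partner of METTL3, had 9.08, 10.8 and 12.9 CPM under actD at 72 h and 14.9, 14.3 and 11.98 CPM in DMSO. The arms overlapped through the third library of each. Its log2 difference was -0.33 (SE 0.22, edgeR adjusted p = 0.560) at 72 h, 0.08 (SE 0.15) at 6 h and -0.44 (SE 0.24) at 2 weeks. Scaled to exon length, METTL3 exceeded METTL14 in all 18 RNA libraries. The ratio of the 2 was 1.98 ± 0.16 under actD and 2.47 ± 0.25 in DMSO at 6 h (SD, n = 3 each). This ratio kept the 6 h arms apart, with 2.15 in the highest actD library and 2.21 in the lowest DMSO library. At 72 h it was 1.20 ± 0.16 and 1.32 ± 0.06, and in the 2-week libraries 2.30 ± 0.23 in those named actd and 2.20 ± 0.68 in those named dmso, both with overlapping arms. Levels were set per length within a library, so the ratio does not depend on library scaling. Its size does depend on the length used. With the longest transcript as length its mean at 6 h was 4.49 under actD and 5.60 in DMSO.

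VIRMA, a scaffold subunit, was the member with an unadjusted p-value under 0.05 at 6 h. Its RNA was 49.2, 49.1 and 48.8 CPM under actD and 61.9, 61.8 and 64.2 CPM in DMSO. The gap between the arms was several times the spread within either. In the test VIRMA had a log2 difference of -0.35 (SE 0.10), with an unadjusted p of 0.00596 and an edgeR adjusted p of 0.451. At 72 h VIRMA was 55.0, 52.5 and 56.5 CPM against 83.4, 93.7 and 73.7 CPM. The arms were again apart, with a log2 difference of -0.61 (SE 0.18), 0.654 times the DMSO level and an edgeR adjusted p of 0.276. In the 2-week libraries named actd it was 75.1, 49.4 and 49.1 CPM, and 68.3, 68.1 and 66.7 CPM in those named dmso. The first named actd library lay above every named dmso library, and the log2 difference was -0.23 (SE 0.17, edgeR adjusted p = 0.722). A single fit over the 18 RNA libraries, which shares 1 estimate of the spread, gave VIRMA at 72 h an edgeR adjusted p of 0.0320 and FTO one of 0.0327. That fit called 1212 of 24803 genes at 72 h, against 1 of 21195 in the test of that time alone.

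ZC3H13, a zinc finger scaffold of the writer, varied in DMSO at 6 h and 72 h but not at 2 weeks, where the named dmso libraries lay within 1.09-fold. At 72 h it was 48.6, 50.7 and 59.2 CPM under actD and 61.8, 119 and 53.4 CPM in DMSO. The second DMSO library stood far above the others, and the third overlapped the actD arm, which left a log2 difference of -0.56 (SE 0.32, edgeR adjusted p = 0.493). In the 2-week libraries it was 55.3, 37.4 and 35.1 CPM in those named actd and 63.8, 62.6 and 58.8 CPM in those named dmso. This was the only member whose arms were apart at 2 weeks, with a log2 difference of -0.53 (SE 0.18), an unadjusted p of 0.0159 and an edgeR adjusted p of 0.489. At 6 h the log2 difference was -0.18 (SE 0.22).

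RBM15, the RNA-binding subunit, did not separate the arms in RNA at any time. At 72 h it was 54.8, 63.2 and 41.5 CPM under actD and 53.5, 78.1 and 42.4 CPM in DMSO. The log2 difference of -0.13 (SE 0.28, edgeR adjusted p = 0.868) turned positive without the third actD library (0.02) or without the second DMSO library (0.14). In the 2-week libraries it was -0.39 (SE 0.16), with an unadjusted p of 0.0392 and an edgeR adjusted p of 0.533.

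WTAP, the anchor of the regulatory subunits, was nearly level. It had 109.9, 107.97 and 111.3 CPM under actD at 72 h and 110.1, 104.8 and 78.5 CPM in DMSO. The actD values spanned less than 4 CPM, and the third DMSO library alone lay low. The log2 difference was 0.17 (SE 0.20, edgeR adjusted p = 0.743) at 72 h, 0.05 (SE 0.11) at 6 h and 0.09 (SE 0.10) at 2 weeks. Because WTAP and METTL3 differed in opposite directions at 72 h, their ratio per exon length was also computed, a choice made after these values were seen. It was 9.38, 9.19 and 8.66 under actD and 6.05, 5.68 and 5.55 in DMSO. The arms were apart, but the pair was picked for its opposite directions, so this is a description and not further evidence. At 6 h it was 4.17, 4.45 and 6.54 against 4.08, 4.16 and 3.97, a gap of under 0.01 between the nearest libraries, and in the 2-week libraries the arms overlapped.

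**Figure D2:**
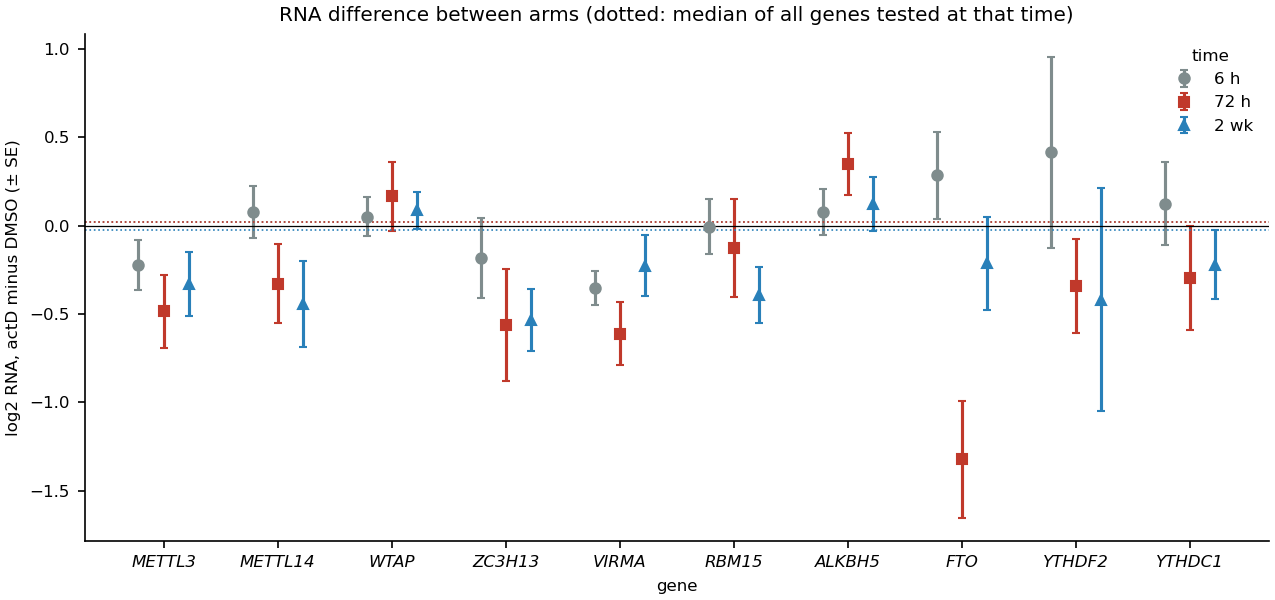
Difference in RNA between the arms (y axis, log2 of actD minus DMSO with SE) for each member (x axis) at 6 h, 72 h and 2 weeks, with dotted lines at the median of all genes tested. At 72 h FTO lies lowest at -1.32 and ALKBH5 highest at 0.35; the positive 2-week values of WTAP and ALKBH5 turn negative when libraries are scaled by their totals.

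FTO, the demethylase with the longest gene, had the widest RNA difference among the members at 72 h. Its RNA then was 14.5, 12.9 and 15.5 CPM under actD and 34.8, 20.7 and 51.6 CPM in DMSO. The actD libraries lay close together and below every DMSO library, whereas the DMSO values differed 2.49-fold among themselves. The log2 difference was -1.32 (SE 0.33), 0.400 times the DMSO level, with an unadjusted p of 0.00440 and an edgeR adjusted p of 0.260. It ranged from -1.60 to -0.96 over 13 alternatives, and DESeq2 gave an adjusted p of 0.0177. The DMSO arm at 6 h was uneven too, with 39.7, 18.8 and 26.8 CPM against 31.3, 34.1 and 38.4 CPM under actD. There the arms overlapped and the log2 difference was 0.28 (SE 0.25, edgeR adjusted p = 0.824). In the 2-week libraries FTO was 39.5, 20.3 and 34.7 CPM in those named actd and 39.2, 26.7 and 43.7 CPM in those named dmso, a log2 difference of -0.21 (SE 0.26).

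ALKBH5, the other demethylase, was on the opposite side. It had 69.1, 68.7 and 71.0 CPM under actD at 72 h and 61.3, 54.0 and 48.7 CPM in DMSO. Every actD library lay above every DMSO library, and this was the only member with that order at any time. ALKBH5 had a log2 difference of 0.35 (SE 0.17), 1.27 times the DMSO level, with an unadjusted p of 0.0830 and an edgeR adjusted p of 0.448. At 6 h it was 0.08 (SE 0.13) and in the 2-week libraries 0.12 (SE 0.15). The ratio of ALKBH5 to FTO per exon length at 72 h was 32.0, 35.7 and 30.8 under actD and 11.8, 17.5 and 6.33 in DMSO, again chosen after the values were seen. With ALKBH5 higher and FTO lower in every actD library, the separation of this ratio was fixed in advance and adds no evidence. At 6 h and in the 2-week libraries the arms of this ratio overlapped.

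YTHDF2, the decay reader, varied more among libraries of 1 arm than between arms. At 6 h it was 132, 51.4 and 120 CPM under actD and 143, 51.7 and 33.0 CPM in DMSO. The DMSO values differed 4.32-fold, and 3.06% of protein-coding genes were as wide in that arm. In the 2-week libraries it was 80.2, 17.6 and 26.6 CPM in those named actd and 20.7, 89.4 and 56.3 CPM in those named dmso. The highest exceeded the lowest 4.55-fold and 4.33-fold there, as wide as 2.77% and 3.39% of protein-coding genes. At 72 h the range was narrower, 1.64-fold in each arm, with 47.8, 78.1 and 59.8 CPM against 82.0, 95.2 and 58.0 CPM. The log2 difference was 0.42 (SE 0.54) at 6 h, -0.34 (SE 0.27) at 72 h and -0.42 (SE 0.63) at 2 weeks, each with overlapping arms and an edgeR adjusted p of at least 0.612. No other annotated gene overlaps YTHDF2. Its paralog YTHDF3, a reader outside the 10, was 82.0, 27.6 and 69.4 CPM under actD at 6 h and 24.8, 26.5 and 27.8 CPM in DMSO. ActD replicates 1 and 3 were thus high for both readers, while the first DMSO library was high for YTHDF2 only.

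YTHDC1, the nuclear reader, had overlapping arms at every time. At 72 h it was 24.8, 32.9 and 37.3 CPM under actD and 44.6, 47.4 and 24.7 CPM in DMSO, a log2 difference of -0.30 (SE 0.29, edgeR adjusted p = 0.690). It was 0.12 (SE 0.24) at 6 h and -0.22 (SE 0.19) in the 2-week libraries.

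A treatment-by-time interaction term compared the effect at 72 h with that at 6 h. Of 10 members, 0 were called, against 0.0165% of 24251 genes, and 1 had an unadjusted p-value under 0.05, against 8.02%. That member was FTO, with a log2 difference between times of -1.62 (SE 0.45), an unadjusted p of 0.00369 and an edgeR adjusted p of 0.437. In sign, 8 of 10 members were lower at 72 h than at 6 h relative to DMSO, with a median of -0.34 against -0.03 for all genes. Of the 24251 genes tested, 12645 were lower in this sense. DESeq2 called 161 genes and 0 members in this test.

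Length separates FTO from the rest. The gene spans 457 kb, while the other 9 members span 8.18 kb (RBM15) to 98.3 kb (ZC3H13). Of 14370 protein-coding genes tested at 72 h, all with a length, 73.3% of the 2921 genes of at least 100 kb were lower under actD, against 43.3% of the 6802 genes under 30 kb. The median log2 difference was -0.29 in the first class and 0.07 in the second. Among the 275 genes at least as long as FTO, 81.8% were lower, with a median of -0.64. The same class had medians of -0.15 at 6 h and -0.26 at 2 weeks. Of the members under 30 kb, METTL3 (13.2 kb) and RBM15 were lower at 72 h, as were 43.3% of genes in that class, and ALKBH5 (26.9 kb) was higher. The part of length in any member's difference was not tested.

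**Figure D3:**
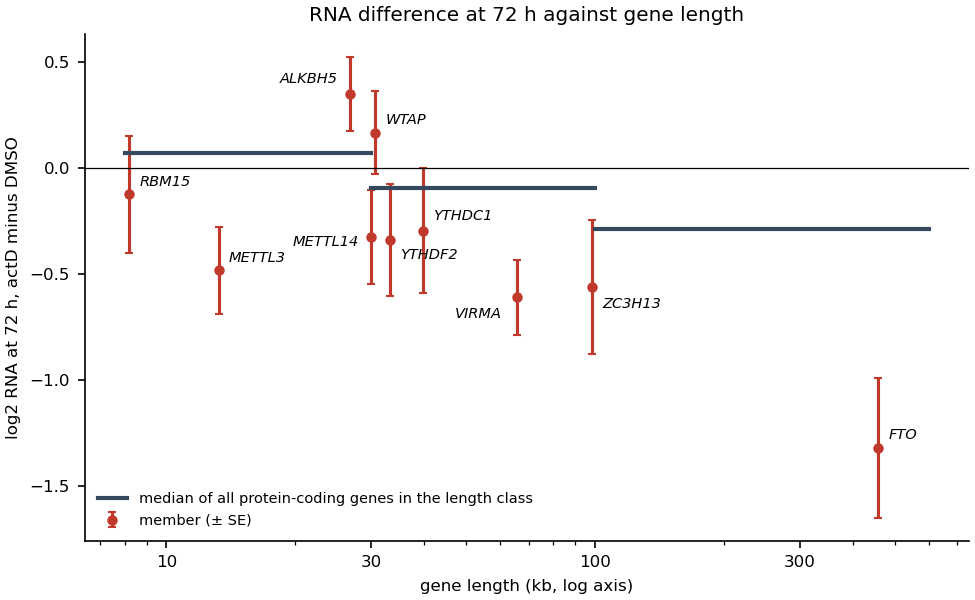
Difference in RNA at 72 h (y axis, log2 of actD minus DMSO with SE) against gene length in kb (x axis, log scale) for the 10 members, with horizontal lines at the median of all protein-coding genes of 3 length classes. FTO lies at the far right and lowest, below the -0.29 median of genes of at least 100 kb.

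Levels were compared between genes per exon length. At 72 h in DMSO, YTHDF2 had 30.6 ± 10.4 TPM, the length-scaled level,, ALKBH5 25.4 ± 3.67, WTAP 22.7 ± 5.26 and RBM15 18.9 ± 8.23 (SD, n = 3 each). ZC3H13 followed with 11.7 ± 6.85 TPM, VIRMA with 11.6 ± 2.69 and YTHDC1 with 8.33 ± 3.24. The lowest were METTL3 at 3.94 ± 0.88, METTL14 at 2.98 ± 0.53 and FTO at 2.41 ± 0.89 TPM. Of the 9 pairs of neighbours in this order, the ranges of 8 overlapped, and the gap lay between YTHDC1 and METTL3. Under actD at 72 h, 5 of 9 pairs overlapped, and FTO, at 0.96 ± 0.16 TPM, lay below METTL14 in every library. METTL3, METTL14 and FTO were the 3 lowest members in both arms at all 3 times on this scale. With the longest transcript as length, METTL3 ranked 5 of 10 at 6 h, 8 at 72 h and 6 at 2 weeks in both arms. On that scale METTL14 was the lowest in both arms at 6 h and 2 weeks and in DMSO at 72 h. FTO was the lowest only under actD at 72 h.

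**Figure D4:**
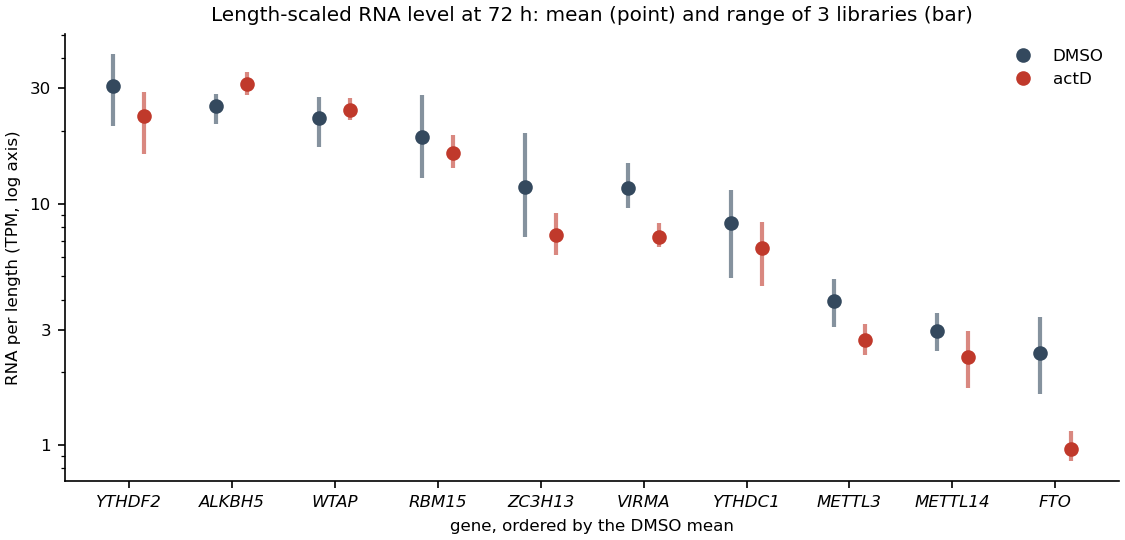
Length-scaled RNA level of the members at 72 h (y axis, TPM on a log scale), ordered by the DMSO mean (x axis). Points are means and bars the range of 3 libraries; METTL3, METTL14 and FTO sit lowest in both arms, with FTO under actD at 0.96 TPM.

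The footprints of the members were few. Over all 18 footprint libraries ZC3H13 had 564 counts, YTHDF2 481, VIRMA 309, RBM15 260, WTAP 138, FTO 70, METTL3 62, ALKBH5 49 and METTL14 5, with YTHDC1 between WTAP and FTO. WTAP, YTHDC1, FTO, METTL3, ALKBH5 and METTL14 did not pass the filter in any footprint table and were left out of the edgeR test reported here. With no filter, 9 members could be tested at 6 h, 9 at 72 h and 10 at 2 weeks, of which 8 were lower at each time and 0 were called by edgeR, while the median of all genes moved to -0.42, 0.55 and -0.05. ALKBH5 had 0 footprint counts in all 6 libraries at 6 h although its RNA averaged 88.7 CPM there. Of the 2010 protein-coding genes with at least that RNA level, 146 (7.26%) were also without a count, and a count of 0 allows up to 3 counts, 3.06 to 7.94 CPM in these libraries. At 72 h ALKBH5 had 18, 3 and 14 counts under actD and 0, 0 and 2 in DMSO, where the libraries were shallower. Scaled to library size these were 26.9, 8.16 and 16.7 CPM against 0, 0 and 24.9 CPM, so the arms overlapped. In the third DMSO library 3 counts correspond to 37.3 CPM.

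RBM15 had the largest footprint difference of the 4 tested members at 72 h. Its footprints were 16.4, 21.8 and 32.1 CPM under actD (11, 8 and 27 counts) and 67.9, 97.2 and 49.7 CPM in DMSO (30, 29 and 4 counts). The actD libraries lay below all DMSO libraries, but the third DMSO value rests on 4 counts. The log2 difference was -1.64 (SE 0.39), 0.320 times the DMSO level, with an unadjusted p of 0.00315 and an edgeR adjusted p of 0.0602. RBM15 passed the threshold with protein-coding genes alone (edgeR adjusted p = 0.0470), where 182 of 2088 genes were called. It also passed without the third actD library (0.0444 by edgeR), where 282 of 2708 genes were called. With all genes and libraries 92 of 2426 were called. RBM15 did not pass under any other alternative. One of these left out DMSO replicate 3, the shallowest library (0.0651 by edgeR, log2 difference -1.74). At 6 h the log2 difference was -0.28 (SE 0.45) and at 2 weeks -0.25 (SE 0.46), both with overlapping arms.

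ZC3H13 footprints at 72 h were 55.2, 40.8 and 95.2 CPM under actD (37, 15 and 80 counts). In DMSO they were 99.5, 194 and 124 CPM (44, 58 and 10 counts). The highest actD library lay just below the lowest DMSO library, with a log2 difference of -1.11 (SE 0.45) and an edgeR adjusted p of 0.161. At 2 weeks they were 19.4, 12.5 and 7.29 CPM (17, 11 and 5 counts) under actD and 46.5, 53.1 and 43.8 CPM (30, 59 and 29 counts) in DMSO. Here every DMSO library lay well above every actD library. ZC3H13 had a log2 difference of -1.84 (SE 0.39), 0.279 times the DMSO level, with an unadjusted p of 0.00156 and an edgeR adjusted p of 0.527. At 6 h it was -0.61 (SE 0.36), with overlapping arms.

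VIRMA footprints at 72 h were 46.3, 57.1 and 42.8 CPM under actD (31, 21 and 36 counts). In DMSO they were 81.4, 80.5 and 74.6 CPM (36, 24 and 6 counts). The arms were apart, but the third DMSO value rests on 6 counts. The log2 difference was -0.71 (SE 0.30, edgeR adjusted p = 0.176). At 2 weeks it was -0.69 (SE 0.31, edgeR adjusted p = 0.562), and at 6 h -1.20 (SE 0.89), where 1 actD library had 0 counts. YTHDF2 footprints at 72 h were 43.3, 54.4 and 66.6 CPM under actD and 104.1, 110.6 and 62.2 CPM in DMSO, overlapping through the third library of each arm, with a log2 difference of -0.80 (SE 0.36, edgeR adjusted p = 0.192). In contrast to its RNA, YTHDF2 footprints at 2 weeks were even, with 27.3, 18.2 and 30.6 CPM under actD and 21.7, 25.2 and 27.2 CPM in DMSO.

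**Figure D5:**
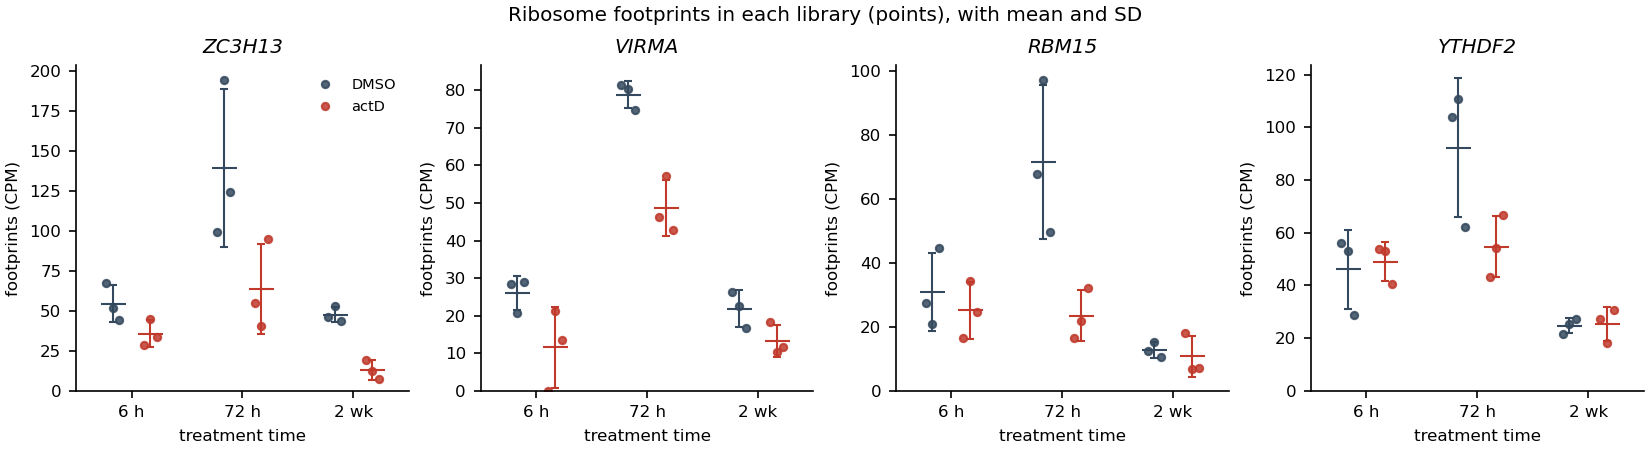
Footprints in CPM (y axis, from 0) by treatment time (x axis) for the 4 members that passed the filter. Points are single libraries and bars the mean with SD of 3. At 72 h the actD points of ZC3H13, VIRMA and RBM15 lie below all DMSO points, as do those of ZC3H13 at 2 weeks. The third DMSO library at 72 h held 10, 6 and 4 counts of ZC3H13, VIRMA and RBM15.

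By edgeR, 0 of the 4 tested members were called in footprints at any time, against 0% of 1212 genes at 6 h, 3.79% of 2426 at 72 h and 0% of 1598 at 2 weeks. DESeq2 called 0.825%, 4.41% and 0% of the genes and 0 members. At an unadjusted p-value under 0.05 there were 0 of 4 members at 6 h (3.14% of all genes), 3 at 72 h (27.3%) and 1 at 2 weeks (8.57%). The arms did not overlap for 0 of 4 members at 6 h (9.41% of all genes), 3 at 72 h (35.7%) and 1 at 2 weeks (14.9%). All 4 were lower at 72 h, as were 1145 of the 2426 genes tested. The median log2 difference was -0.96 for the 4 members against 0.07 over all genes tested. These 4 are the members with the most footprints and do not stand for the 10. The DMSO footprint libraries at 72 h held 26831 to 121227 protein-coding counts and the actD libraries 127856 to 283435. Mitochondrial ribosomal RNA took 12.4% to 21.0% of the actD footprints there and 4.80% to 10.6% of the DMSO footprints. The part of depth and make-up in these differences was not tested.

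Translational efficiency compares the footprints of a gene with its RNA and was tested in 1 model over both kinds of library. Of the 4 members, 0 were called at 6 h, 72 h or 2 weeks by edgeR, against 0% of 951 genes, 0.433% of 2311 and 0% of 1441. Unadjusted p-values under 0.05 were found for 0 members at 6 h (5.26% of all genes), 1 at 72 h (14.9%) and 1 at 2 weeks (5.14%), and DESeq2 called 1, 59 and 1 genes and 0 members. The member at 72 h was RBM15, whose RNA was nearly level while its footprints were lower, with a log2 difference in efficiency of -1.70 (SE 0.46), an unadjusted p of 0.00303 and an edgeR adjusted p of 0.127. The other 3 lay between -0.70 (ZC3H13) and -0.27 (VIRMA) at 72 h, and VIRMA turned positive with library totals (0.04) or with no filter on low counts (0.01). At 2 weeks the member was ZC3H13, at -1.36 (SE 0.37), with an unadjusted p of 0.00313 and an edgeR adjusted p of 0.879. That value depends on the doubtful 2-week RNA labels. With the RNA arms taken by title it was -2.40, with an edgeR adjusted p of 0.0101, and 27 genes were called.

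The 31 other m6A genes, readers, cofactors and partners on a list made beside the members, had 22 lower and 9 higher at 72 h (median -0.25), 21 and 10 at 2 weeks (median -0.11), and 18 and 13 at 6 h (median -0.07). Over all genes tested, 10296 of 21195 were lower at 72 h, 11254 of 21137 at 2 weeks and 10648 of 22669 at 6 h. By edgeR 0 of the 31 were called in RNA at any time. At an unadjusted p-value under 0.05 there were 2 higher and 2 lower at 6 h, against 8.21% of all genes, 0 higher and 3 lower at 72 h (13.1%), and 1 higher and 6 lower at 2 weeks (8.93%). RBM15B, the paralog of RBM15, had a log2 difference of 0.44 (SE 0.21, edgeR adjusted p = 0.415) at 72 h. YTHDF1, the paralog of YTHDF2 on the cytoplasmic side, stayed between -0.08 and 0.07 at the 3 times. YTHDF3 had 1.18 (SE 0.34, unadjusted p = 0.00863, edgeR adjusted p = 0.464) at 6 h, -0.21 (SE 0.27) at 72 h and -0.68 (SE 0.41) at 2 weeks. YTHDC2, a reader with a helicase domain, was -0.31 (SE 0.18), -0.27 (SE 0.20) and -0.41 (SE 0.14) at the same times. METTL4, a relative of METTL3 and METTL14, lay at 0.24 (SE 0.14), 0.02 (SE 0.21) and -0.20 (SE 0.15).

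Over the 18 RNA libraries, with log2(CPM + 1) of each gene centred on its mean in each table, WTAP (Pearson r = -0.14) and ALKBH5 (r = -0.35) did not follow the mean of the 10 members, which includes them. The other 8 had r between 0.41 (FTO) and 0.78 (METTL14). Among 9924 other protein-coding genes with at least 5 CPM on average in each table, the 5 most like that mean were SPTY2D1 (r = 0.93), IK (0.91), MFAP1 (0.90), HDAC2 (0.89) and KBTBD6 (0.89). Their log2 differences at 72 h lay between -0.62 (MFAP1) and -0.34 (HDAC2), and 0 of the 5 were called by edgeR (adjusted p from 0.298 to 0.551). These correlations describe 18 libraries that share their make-up and scaling within a table, so no p is given.

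Genes on the opposite strand overlap several members: TOX4 at METTL3, SOD2 at WTAP, RPGRIP1L at FTO, and antisense genes at RBM15, VIRMA, ALKBH5 and FTO. FTO also overlaps AC007496.3 on the same strand, where strand cannot tell the reads apart. The kits mark strand, but the use of strand in counting is not given in the sources used here, so reads from overlapping stretches may not be told apart.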

How the data were processed

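Total RNA and ribosome footprints of WiT49 cells were analysed from 6 deposited tables, 1 per assay and time. The authors deposited 1 value per gene and library, read here as an estimated count; all are whole numbers, and which tool wrote them is not given in the sources used here. In the RNA tables at 6 h and 2 weeks the value 3 occurred 1.99 and 2.01 times as often as the mean of 2 and 4 (0.92 times at 72 h), so 1 fragment may be worth more than 1 count there. The submitters' processing notes name HISAT2, StringTie and hg38, with no version. Which of the named extraction and library kits served which library is not given in the sources used here.

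Of the row identifiers, 99.4% matched GENCODE 29. Genes that passed filterByExpr were scaled by TMM and tested with edgeR 4.0.16 (R 4.3.3) by its quasi-likelihood test, with Benjamini-Hochberg adjustment over all genes of a table and a threshold of 0.05. Translational efficiency was the assay-by-treatment interaction, and 72 h against 6 h the treatment-by-time interaction, 10 comparisons in all. The test was tried on simulated counts first. CPM used TMM library sizes, and TPM used the union of exons. Alternatives were library totals, DESeq2 1.42.0 and its size factors, no filter, protein-coding genes only, a joint fit, a replicate block, 2-week arms by title, and leaving out each library. Named genes were the members, the paralogs of members, and the 5 genes most like the members' mean. The members and lists were chosen with earlier results of these data known. A floor of 3 counts covers counting error only.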

Additional observations from a re-analysis of the deposited data

How the results depend on the processing

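The count of members called stayed at 0 under most alternatives. At 72 h in RNA it was 1 with DESeq2 (FTO, 608 of 21195 genes called). It was 2 in the joint fit over 18 libraries (FTO and VIRMA, 1212 of 24803 genes called). The edgeR test of that time alone called 1 of 21195 genes. In footprints at 72 h the count of members called was 1 with protein-coding genes only (RBM15, 182 of 2088 genes called). Leaving out each library gave 0 to 1 members and 0 to 282 genes, against 92 of 2426 with all libraries. RBM15 was called without actD replicate 3, where 282 of 2708 genes were called. Library totals gave 7 genes, no filter 321 and the replicate block 0. In translational efficiency at 2 weeks the count of members called was 1 with the RNA arms by title (ZC3H13, 27 of 1441 genes called). The cause was not tested. DESeq2 called more genes than edgeR in RNA, 197 at 6 h and 189 at 2 weeks against 0. By the correlation of their deviations, same-numbered actD and DMSO libraries were not all above 0.1 at any time in either assay. RNA and footprint libraries of 1 number were all above 0.1 in the 72 h actD arm (0.18, 0.19 and 0.42) and the 2-week DMSO arm (0.13, 0.11 and 0.13), but not in the other arm at those times, so the numbers were not taken as a pairing. With the replicate block 0 members were called in all 10 comparisons. Library totals moved the median of all genes from 0.11 to -0.61 in footprints at 6 h and from -0.03 to -0.79 in efficiency at 6 h. Of 946 differences of single members under alternatives, 930 stayed within their spread, 16 moved beyond it and 40 changed sign, beside the 2-week RNA differences by title. Since 0 members were called by edgeR in any comparison, no called value could reverse. Depth limits the footprints, where 6 of 10 members fell under the filter on low counts.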
